A study of Mus musculus with 26 samples.

Results

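The 10 genes described here are *Lef1*, *Tcf7*, *Tcf7l1* and *Tcf7l2*, which encode the LEF/TCF DNA-binding factors of the Wnt pathway, *Axin2*, *Nkd1* and *Sp5*, which the pathway switches on and which then restrain it, and *Dkk2*, *Wif1* and *Sfrp2*, which encode secreted inhibitors. They were taken by symbol from a table of FPKM values (fragments of a gene scaled by transcript length and library size), in which they are 10 of 52454 gene symbols, each with 1 row. The set was chosen by pathway, around *Lef1*, with results of the same data in view. *Lef1* itself was selected on its FPKM ratios between the 2i-MEF libraries and between the heart libraries, where its lower values were among the largest, so those ratios are given as a description. Wnt proteins bind Frizzled and LRP receptors at the cell surface, which stops the destruction complex from degrading beta-catenin. Beta-catenin then enters the nucleus and binds LEF/TCF factors, which without it repress the same genes together with co-repressors. *Lef1* and *Tcf7* are best known from lymphocytes, limb bud, hair follicle and other embryonic mesenchyme and ectoderm, and *Tcf7l1* mostly acts as a repressor.

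RNA-seq libraries from mouse E14.5 embryos were examined, 1 per condition. The 2i-MEFs were female fibroblasts of an F1 cross between 129X1/SvJ and MSM/Ms. They had been derived through chimeric embryos from 2i/L ES cells that carried a CRISPR/Cas9 knockout of either *Dnmt3a* or *Dnmt3b*, and the donor-derived cells had been selected before use. The second set held male C57BL6 fibroblasts at passage p1, labelled *Dnmt3a* WT or *Dnmt3a* KO and cultured with DMSO or with GSK126, an inhibitor of the histone methyltransferase EZH2. The last set held heart and liver of male C57BL6 embryos labelled WT or *Dnmt3a* KO. The KO alleles in the fibroblasts at p1 and the tissues were germline alleles from crosses of heterozygous mice, and the methods name the *Dnmt3a* line as B6;129S4-*Dnmt3a*<tm1Enl>, a mixed stock by its name. No WT 2i-MEF library was analysed here, so the 2i-MEFs could only be compared with each other, *Dnmt3a* KO against *Dnmt3b* KO.

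With 1 library per condition there was no replicate error within a condition, so no test was made and no p-value is given. Estimated depth ranged from 9161940 to 26194443 mapped reads, which makes 1 read on a transcript of 2000 bases worth 0.0212 to 0.0606 FPKM. The ranges beside the values below are 95% intervals for counting error only, built on the shortest annotated coding transcript of each gene, and they say nothing about variation between embryos or cultures. A gene was counted as higher or lower when its FPKM + 1 differed by at least 2-fold between libraries, and genes were counted only where either library reached 1 FPKM. *Dnmt3a* itself followed the labels in 2i-MEFs (4.21 FPKM where *Dnmt3a* was knocked out, 23.9 FPKM where *Dnmt3b* was) and in liver (12.7 FPKM under the KO label, 53.5 FPKM under WT). It went against them in heart, at 125 FPKM under the KO label and 55.0 FPKM under WT, and in MEFs, at 85.7 and 84.5 FPKM under KO and 26.1 and 19.3 FPKM under WT. An FPKM of the whole gene cannot tell if the deleted exons were still read, and from this level alone a KO allele that is still transcribed cannot be told apart from exchanged labels. *Pax8*, a kidney and thyroid factor that the study follows in these same samples and that was singled out here after its values were seen, went one way in 2i-MEFs and MEFs. Its level was 16.6 FPKM in the 2i-MEFs without *Dnmt3a* and 0.715 FPKM in those without *Dnmt3b*, and 4.24 and 6.92 FPKM in MEFs labelled KO against 0.236 and 0.101 FPKM in WT, with DMSO and GSK126 in that order. In heart it was listed at 0 in both libraries. DNA methylation of *Dnmt3a* KO heart, which the study also measured, was not analysed here, and its label does not say if it came from the same embryo. The samples are therefore called "labelled *Dnmt3a* KO", and if the labels were exchanged every KO against WT direction given below for MEFs and heart would be turned. The WT heart and liver carry the same number in their labels, as do the KO-labelled heart and liver, so the heart and liver values may come from the same embryos. Cardiomyocyte markers summed to 29628 FPKM in WT heart and hepatocyte markers to 23688.5 FPKM in WT liver, while *Alb* and *Afp* were listed at 0 in both 2i-MEF libraries.

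The promoters of *Lef1*, *Sp5*, *Dkk2* and *Sfrp2* are shown because these genes stood at the extremes of the set: *Lef1*, *Dkk2* and *Sfrp2* differed most between the 2i-MEF libraries and *Sp5* was nearly silent everywhere. Each is a RefSeq window of 300 bases on GRCm38.p6, 250 before and 50 after an annotated start, on the + strand. The *Lef1* windows lie at chr3:131110047-131110346, at the first start, and at chr3:131156044-131156343, at a later start inside the gene. Those of *Sp5*, *Dkk2* and *Sfrp2* lie at chr2:70474673-70474972, chr3:132085042-132085341 and chr3:83766071-83766370. Capitals mark the LEF/TCF words CTTTGA and CTTTGT, or their reverse complements TCAAAG and ACAAAG.
Lef1, first start: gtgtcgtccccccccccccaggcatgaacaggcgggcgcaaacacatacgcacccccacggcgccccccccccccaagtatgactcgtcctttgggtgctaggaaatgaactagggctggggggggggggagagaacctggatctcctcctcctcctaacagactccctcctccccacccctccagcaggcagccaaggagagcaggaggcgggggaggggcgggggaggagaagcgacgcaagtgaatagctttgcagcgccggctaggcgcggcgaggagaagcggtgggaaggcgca
Lef1, later start: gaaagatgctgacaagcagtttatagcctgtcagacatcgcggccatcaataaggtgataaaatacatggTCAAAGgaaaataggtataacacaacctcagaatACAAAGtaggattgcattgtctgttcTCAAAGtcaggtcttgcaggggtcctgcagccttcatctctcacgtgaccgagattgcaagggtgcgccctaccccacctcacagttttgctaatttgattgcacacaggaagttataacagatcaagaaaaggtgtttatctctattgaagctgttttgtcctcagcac
Sp5: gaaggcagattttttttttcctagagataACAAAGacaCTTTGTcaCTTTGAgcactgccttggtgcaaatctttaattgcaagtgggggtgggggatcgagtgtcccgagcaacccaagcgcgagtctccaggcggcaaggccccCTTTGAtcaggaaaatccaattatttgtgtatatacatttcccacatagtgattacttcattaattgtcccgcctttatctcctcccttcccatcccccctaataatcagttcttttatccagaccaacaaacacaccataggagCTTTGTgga
Dkk2: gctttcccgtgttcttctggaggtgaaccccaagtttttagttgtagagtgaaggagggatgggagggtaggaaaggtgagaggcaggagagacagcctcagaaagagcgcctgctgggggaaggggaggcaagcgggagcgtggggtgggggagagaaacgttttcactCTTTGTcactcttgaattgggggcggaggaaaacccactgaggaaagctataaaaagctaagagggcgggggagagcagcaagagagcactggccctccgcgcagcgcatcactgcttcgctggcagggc
Sfrp2: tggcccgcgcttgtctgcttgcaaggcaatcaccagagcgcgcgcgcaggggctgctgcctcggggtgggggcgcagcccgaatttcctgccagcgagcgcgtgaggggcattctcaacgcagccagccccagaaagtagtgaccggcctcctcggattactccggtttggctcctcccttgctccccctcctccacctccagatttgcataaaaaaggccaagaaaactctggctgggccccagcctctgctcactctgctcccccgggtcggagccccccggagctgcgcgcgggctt

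All 10 genes had at least 1 window, 15 in all, because *Lef1*, *Tcf7* and *Tcf7l2* have several annotated starts. Of the 15 windows, 5 held at least 1 of the words, and 31.2% of all 32851 RefSeq windows did. The *Sp5* window held 5 words, a number reached by 0.0365% of all windows, and the later *Lef1* start held 3, a number reached by 1.14%. The first *Lef1* start and the windows of *Sfrp2*, *Axin2*, *Nkd1* and *Wif1* held none. CG dinucleotides, the sites that DNMT3A and DNMT3B methylate, were more numerous than the median window's 7 in 11 of the 15 windows. *Tcf7* had the most, 45 at its first start, a number reached by 1.93% of windows, followed by *Tcf7l1* and *Tcf7l2* with 34 each at their first starts. *Axin2* had 31, *Sfrp2* 22, the first *Lef1* start 18 and *Dkk2* 11, while *Sp5* and *Nkd1* had 6 each. The only *Nkd1* window, at chr8:88527383-88527682, lies inside the gene as listed, which begins at 88521354. Its counts therefore do not describe that first position. These letter matches are a description of the windows, and methylation was not analysed here.

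*Tcf7l1* led the LEF/TCF factors in these samples, while the next in order varied with the kind of sample. FPKM is scaled by transcript length, so levels can be set beside each other, and *Tcf7l1* was the highest of the 4 factors in all 10 libraries, with 40.3% to 71.4% of their summed FPKM. It was highest in MEFs, at 22.0 to 31.4 FPKM, and lowest in liver, where WT had 7.08 FPKM and the KO-labelled library 5.83 FPKM. *Tcf7l2*, which encodes the factor TCF4 that is prominent in gut and liver, lay between 5.71 and 12.5 FPKM in the 6 fibroblast libraries. It lay between 3.17 and 5.22 FPKM in heart and liver, below all fibroblasts, but the lowest fibroblast library (*Dnmt3b* KO 2i-MEFs, 5.71 FPKM) and WT liver (5.22 FPKM) did not differ beyond counting error. Neither gene differed by 2-fold in any of the 7 comparisons. On the longest coding transcript, though, the *Tcf7l1* ratio was outside counting error in all 7, such as 1.34 to 1.74 times in 2i-MEFs. On the shortest it was outside only for GSK126 against DMSO in MEFs labelled KO.

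*Lef1* was low in most libraries and stood out in *Dnmt3b* KO 2i-MEFs and WT heart. Its highest level was 5.63 FPKM (4.61 to 6.78) in *Dnmt3b* KO 2i-MEFs, followed by 3.52 FPKM in WT heart. The heart labelled *Dnmt3a* KO had 1.27 FPKM and *Dnmt3a* KO 2i-MEFs had 1.25 FPKM (0.847 to 1.82), values that did not differ beyond counting error. WT MEFs had 0.212 FPKM in DMSO and 0.352 FPKM in GSK126, and MEFs labelled KO had 0.109 and 0.395 FPKM in the same order. WT liver had 0.319 FPKM, and the liver labelled KO was listed at 0, which allows up to 0.0556 FPKM for 3 reads. Both 2i-MEF libraries were thus above all 4 MEF libraries, and among the MEFs and WT liver neighbouring levels did not differ beyond counting error. As a share of the 4 factors, *Lef1* made up 21.1% in *Dnmt3b* KO 2i-MEFs and 4.07% in *Dnmt3a* KO 2i-MEFs, 12.8% and 6.02% in the WT and KO-labelled hearts, and at most 1.24% in MEFs.

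*Tcf7*, which encodes TCF1, showed another order. Its level was 4.06 FPKM in WT liver and 4.05 FPKM in the liver labelled KO, 2.42 and 2.12 FPKM in the same order in heart, and 0.403 to 1.12 FPKM in the fibroblasts. Every tissue library was above every fibroblast library, and the 4 factors together held 24.3% and 28.0% *Tcf7* in the WT and KO-labelled liver. *Tcf7* is best known from T cells, and lymphoid markers summed to 5.55 FPKM in WT liver and 3.50 FPKM in the liver labelled KO, with 1 of the 8 markers (*Ptprc*) at 1 FPKM or more. Their part in the *Tcf7* level was not tested. In bulk RNA, fewer cells of a type and less RNA per cell cannot be told apart.

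**Figure D1:**
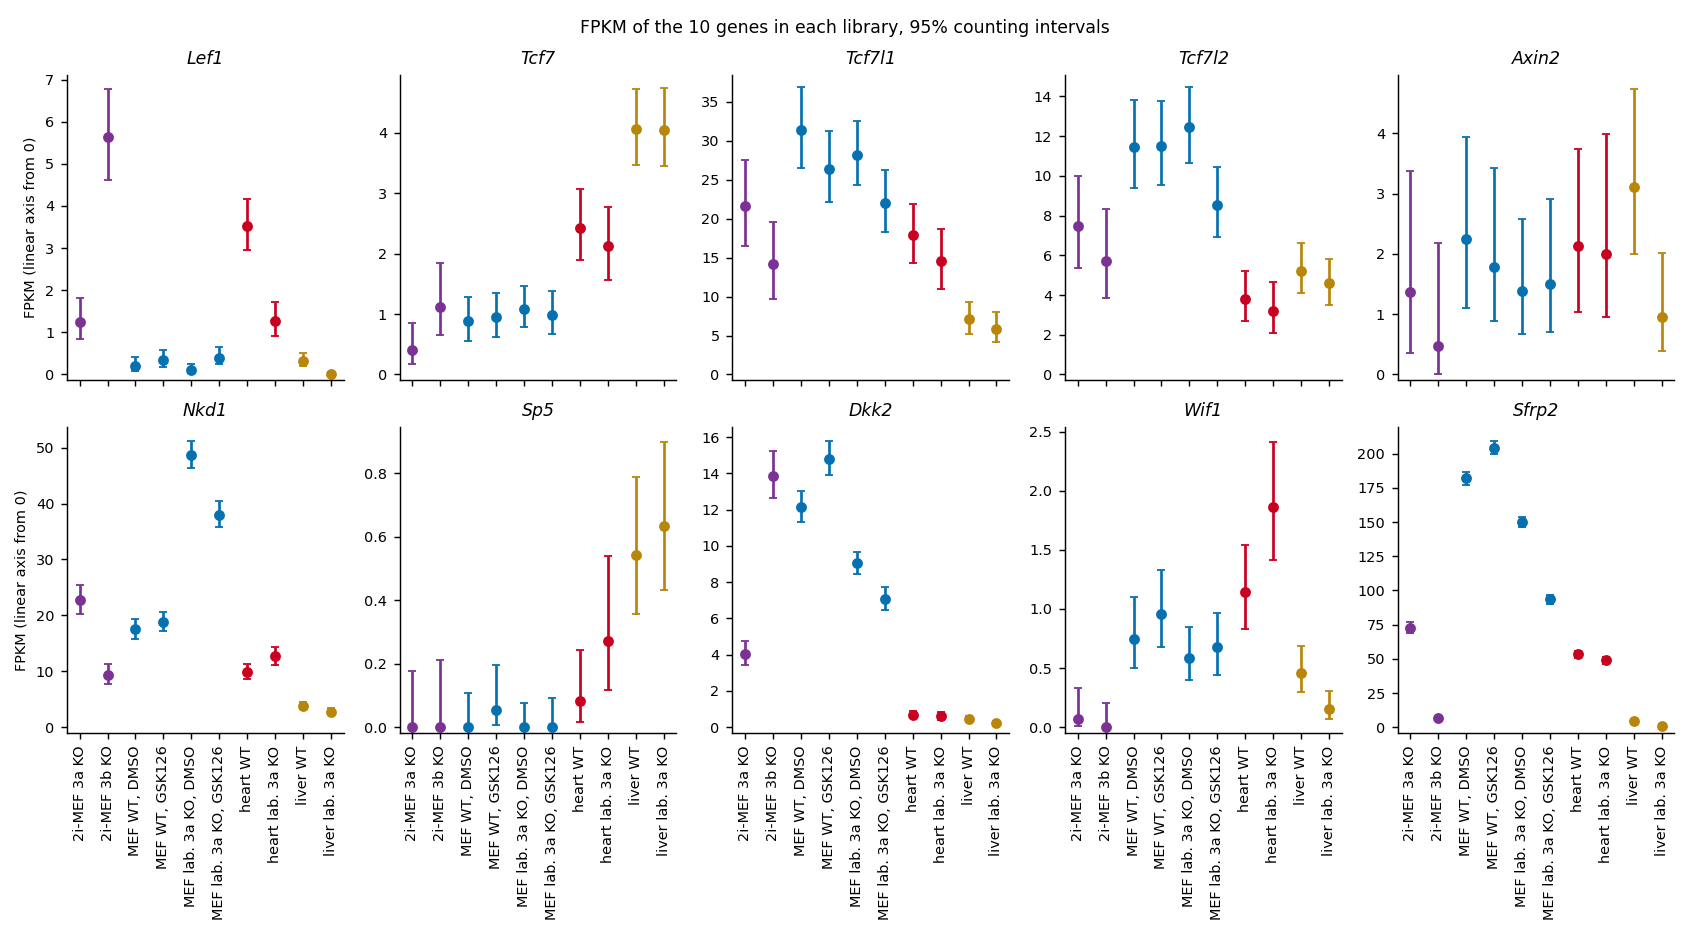
FPKM (linear axes from 0, 1 panel per gene) in the 10 libraries, 1 point per library, with 95% counting intervals; "lab." means labelled, 3a and 3b stand for Dnmt3a and Dnmt3b, and colours mark 2i-MEFs, MEFs, heart and liver. Lef1 stands highest in Dnmt3b KO 2i-MEFs at 5.63 FPKM, Tcf7 highest in liver, and Sfrp2 runs from 1.11 to 204 FPKM.

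Among the feedback genes, *Nkd1* was abundant, *Axin2* low and *Sp5* close to absent. *Nkd1* encodes an inhibitor that binds Dishevelled. It had 48.7 FPKM (46.4 to 51.2) in MEFs labelled *Dnmt3a* KO with DMSO and 38.0 FPKM in those with GSK126, against 17.5 and 18.8 FPKM in the WT MEFs. *Dnmt3a* KO 2i-MEFs had 22.8 FPKM and *Dnmt3b* KO 2i-MEFs 9.33 FPKM. WT heart had 9.90 FPKM and the heart labelled KO 12.7 FPKM, and liver had 3.83 and 2.78 FPKM. The KO-labelled MEFs stood above all other libraries, and liver below all others.

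*Axin2* encodes a scaffold of the destruction complex and is the most widely used readout of the pathway. It had 3.10 FPKM (2.00 to 4.74) in WT liver and 0.950 FPKM (0.394 to 2.02) in the liver labelled KO, 2.12 and 2.00 FPKM in heart, and 1.38 to 2.25 FPKM in MEFs. *Dnmt3a* KO 2i-MEFs had 1.36 FPKM and *Dnmt3b* KO 2i-MEFs 0.475 FPKM. These levels rested on 1 to 23 reads with the shortest coding transcript, or 18 to 330 with the longest, and no neighbours in the order of the 10 levels differed beyond counting error on the shortest. *Sp5*, a zinc-finger factor that competes at Wnt-regulated promoters, was listed at 0 in 5 of the 6 fibroblast libraries and stayed under 1 FPKM in all 10. Its highest values were 0.634 FPKM in the liver labelled KO and 0.542 FPKM in WT liver, on 31 and 27 reads.

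The secreted inhibitors were dominated by *Sfrp2*, whose product binds Wnt proteins outside the cell. *Sfrp2* had 182 and 204 FPKM in WT MEFs with DMSO and GSK126, and 150 and 93.5 FPKM in MEFs labelled KO with the same treatments. *Dnmt3a* KO 2i-MEFs had 72.7 FPKM (69.0 to 76.6) and *Dnmt3b* KO 2i-MEFs 6.48 FPKM (5.31 to 7.82). WT heart had 53.3 FPKM and the heart labelled KO 49.0 FPKM, and liver had 4.62 and 1.11 FPKM. All 10 levels differed from their neighbours in the order beyond counting error, and the highest was 184 times the lowest. *Sfrp2* was the highest of the 3 inhibitors in 9 libraries, with 75.5% to 96.7% of their summed FPKM, and made up 31.8% in *Dnmt3b* KO 2i-MEFs.

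*Dkk2* encodes a ligand of LRP co-receptors of the Dickkopf family. It was highest of the 3 inhibitors in *Dnmt3b* KO 2i-MEFs, at 13.9 FPKM (12.6 to 15.2) and 68.2% of their sum, against 4.05 FPKM (3.44 to 4.74) in *Dnmt3a* KO 2i-MEFs. The MEFs had 12.2 and 14.8 FPKM with the WT label and 9.05 and 7.08 FPKM with the KO label, with DMSO and GSK126 in that order. Heart and liver lay between 0.211 and 0.677 FPKM, below every fibroblast library. *Wif1*, which encodes a Wnt-binding protein, reached 1.86 FPKM in the heart labelled KO, its highest, and 1.14 FPKM in WT heart. It lay between 0.589 and 0.959 FPKM in MEFs, at 0.462 and 0.150 FPKM in WT and KO-labelled liver, and at 0.0708 FPKM in *Dnmt3a* KO 2i-MEFs, and was listed at 0 in *Dnmt3b* KO 2i-MEFs.

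**Figure D2:**
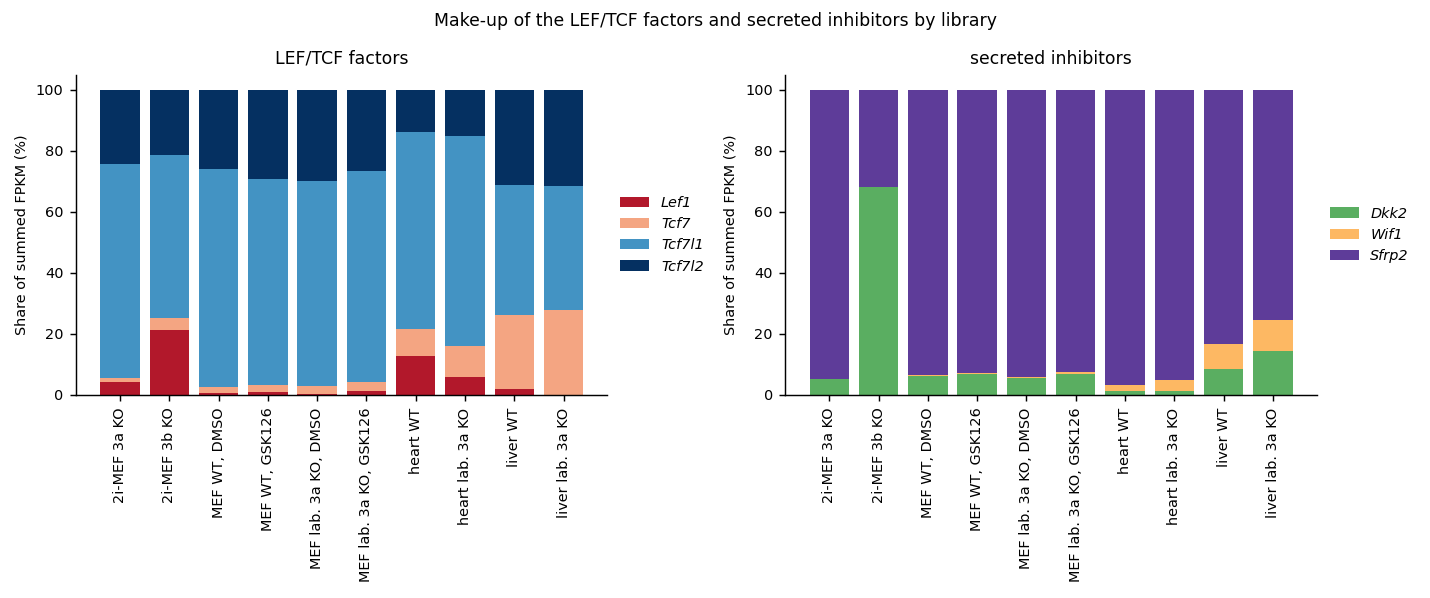
Share (%) of the summed FPKM held by each LEF/TCF factor (left) and each secreted inhibitor (right) in the 10 libraries, as stacked bars from 0; "lab." means labelled. Tcf7l1 is the largest factor in all 10 libraries, Lef1 reaches 21.1% in Dnmt3b KO 2i-MEFs, and Dkk2 replaces Sfrp2 as the largest inhibitor in that library with 68.2%.

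Across kinds of sample, 9 of the 10 genes reached 1 FPKM in at least 1 library. Of these, *Dkk2* and *Tcf7l2* were higher in all 6 fibroblast libraries than in all 4 tissue libraries, *Tcf7* was lower, and 6 overlapped. Among all genes at that level, 17.8% were higher and 15.4% lower. Between heart and liver, 6 of the 9 were higher in both heart libraries and 2 lower, with 38.5% and 39.7% of all genes. For *Dkk2*, one of the 6, and *Tcf7l2*, one of the 2, the nearest heart and liver libraries did not differ beyond counting error. Between 2i-MEFs and MEFs, *Lef1* alone of the 9 was higher in both 2i-MEF libraries and 5 were lower, *Sfrp2*, *Tcf7l1*, *Tcf7l2*, *Axin2* and *Wif1*, with 22.0% and 20.1% of all genes. For *Tcf7l1*, *Tcf7l2* and *Axin2* the nearest libraries of the 2i-MEFs and MEFs did not differ beyond counting error. These fibroblasts differ in sex, strain and derivation as well, both 2i-MEF libraries carry a *Dnmt3* knockout, and all MEFs had been cultured with DMSO or GSK126. These differences cannot be told apart from the kind of cell. Macrophage markers, led by *Lyz2*, *C1qa* and *Cd68*, summed to 1018.5 to 1423 FPKM in MEFs and to 15.4 and 23.6 FPKM in 2i-MEFs.

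In 2i-MEFs, *Dnmt3a* KO cells had less *Lef1* and *Dkk2* and more *Sfrp2* and *Nkd1* than *Dnmt3b* KO cells. *Sfrp2* was 11.2-fold higher in FPKM (9.23 to 13.8), a log2 ratio of FPKM + 1 of 3.30. *Nkd1* was 2.44-fold higher (1.96 to 3.06). *Lef1* was 4.49-fold and *Dkk2* 3.43-fold lower, each with a log2 ratio of FPKM + 1 of -1.56. Thus 4 of the 8 genes at 1 FPKM were past 2-fold, 2 in each direction, where 9.01% of all genes were, and the median log2 ratio of these 8 was 0.46 against 0.025 for all genes. Without *Lef1*, which was selected on this ratio, 3 of 7 were past 2-fold. *Tcf7* was 2.79-fold lower in FPKM but at 0.403 against 1.12 FPKM, and *Axin2* 2.87-fold higher at 1.36 against 0.475 FPKM. The *Axin2* ratio was within counting error on the shortest coding transcript, with 4 against 1 reads. On the longest, with 60 against 18 reads, it was outside (1.63 to 5.03). *Tcf7* and *Axin2* were too low to pass on the FPKM + 1 scale, and with a pseudocount of 0.1 both passed, which gave 3 genes higher and 3 lower. Cartilage markers moved with these genes, summing to 47.4 FPKM where *Dnmt3a* was knocked out and 7.95 FPKM where *Dnmt3b* was, with *Col2a1* at 20.8 against 1.29 FPKM and *Comp* at 13.8 against 0.0984 FPKM. Of these 8 markers, 7 were at 1 FPKM or more in *Dnmt3a* KO cells, and 4 in *Dnmt3b* KO cells, where 2 were listed at 0. The limb and position genes summed to 202 and 180 FPKM and had 1 gene past 2-fold in each direction, *Msx1* with 4.54 against 0.691 FPKM and *Shox2* with 5.17 against 26.0 FPKM. Neural markers summed to 30.9 and 55.6 FPKM in the same order, with *Nes* at 12.0 against 27.3 FPKM, endothelial markers to 13.4 and 6.67 FPKM and macrophage markers to 23.6 and 15.4 FPKM. Skeletal muscle markers had 1 gene past 2-fold in each direction, *Acta1* with 5.31 against 17.0 FPKM and *Tnnt3* with 8.42 against 2.41 FPKM. The part of these markers' cells in the result was not tested. Fibroblast markers summed to 25843 and 24434 FPKM.

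Other Wnt pathway genes also differed by 2-fold between the 2i-MEF libraries. Of 99 further pathway genes, 65 had at least 1 FPKM, and 7 were higher and 1 lower in *Dnmt3a* KO cells, to be read beside the 9.01% of all genes past 2-fold in either direction. Their median log2 ratio was 0.14. *Sfrp4*, an inhibitor related to *Sfrp2*, had 84.2 against 18.2 FPKM, and *Dkk3* 108 against 44.2 FPKM. *Frzb*, a further SFRP family inhibitor, was the gene in the other direction, with 5.20 against 17.3 FPKM. The ligands *Wnt16* and *Wnt5b* had 34.7 against 11.8 FPKM and 2.91 against 0.911 FPKM. *Rspo2*, an R-spondin that amplifies Wnt signals, had 56.7 against 17.2 FPKM, its receptor *Lgr5* 9.25 against 3.45 FPKM and the co-repressor *Tle2* 15.3 against 6.63 FPKM. None of the 13 receptors and co-receptors at 1 FPKM and none of the 11 beta-catenin and destruction complex genes, led by *Ctnnb1*, was past 2-fold.

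In MEFs, *Nkd1* was higher in the libraries labelled *Dnmt3a* KO and *Sfrp2* and *Dkk2* were lower. With DMSO, *Nkd1* was 2.78-fold higher in FPKM (2.49 to 3.11) and was the only gene of the 7 at 1 FPKM past 2-fold, beside 6.26% of all genes. *Dkk2* was 1.34-fold lower and *Sfrp2* 1.21-fold lower in FPKM, both under 2-fold but outside counting error. *Axin2* was 1.63-fold lower, at 1.38 against 2.25 FPKM, which was within counting error on its shortest coding transcript (0.243 to 1.65 times WT) and outside it on the longest (0.489 to 0.775). With GSK126, *Sfrp2* was 2.18-fold lower and was the only gene of the 6 at 1 FPKM past 2-fold, beside 5.83% of all genes. *Nkd1* was 2.02-fold higher and *Dkk2* 2.09-fold lower in FPKM, just under 2-fold on the FPKM + 1 scale at log2 ratios of 0.98 and -0.97. *Tcf7l2* was 1.35-fold lower with GSK126, outside counting error, and *Lef1* stayed within it in both treatments. The median log2 ratio of the genes at 1 FPKM was -0.15 with DMSO and -0.32 with GSK126, against 0.039 and 0.0058 over all genes.

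Several marker lists differed between the same MEF libraries. Limb and position genes summed to 245 and 217 FPKM in WT MEFs and to 159 and 154 FPKM in those labelled KO. *Pitx1*, a hindlimb factor, had 50.5 and 32.5 FPKM under the WT label and 10.9 and 14.4 FPKM under the KO label, and *Shox2* had 39.4 and 34.1 against 8.72 and 21.5 FPKM. Cartilage markers summed to 75.9 and 93.0 FPKM in WT and to 282 and 286 FPKM with the KO label, and epicardial and mesothelial markers to 80.1 and 92.9 FPKM against 144 and 357 FPKM. Skeletal muscle markers summed to 19.8 and 20.97 FPKM in WT and to 56.8 and 33.5 FPKM with the KO label, and epidermal markers to 8.34 and 8.07 against 13.02 and 31.5 FPKM. Macrophage markers summed to 1377 and 1423 FPKM in WT and to 1157 and 1018.5 FPKM with the KO label. Of the fibroblast markers, none was past 2-fold with DMSO and 2 were lower with GSK126, where *Col3a1* had 1193 against 2398 FPKM. Their part in the *Nkd1*, *Sfrp2* and *Dkk2* values was not tested. Of the 99 other pathway genes, 72 had at least 1 FPKM with DMSO and 5 of them were higher and 2 lower, and 75 had it with GSK126 and 2 were higher and 2 lower. The R-spondin gene *Rspo1* was higher under the KO label, at 7.94 FPKM where WT had 2.26 in DMSO, and at 12.9 FPKM where WT had 3.998 in GSK126. Of its receptor genes, *Lgr4* had 16.1 against 8.68 FPKM in DMSO and 12.0 against 9.56 FPKM in GSK126, under 2-fold, while the others were lower, *Lgr5* with 4.72 against 10.7 and 5.54 against 12.7 FPKM, and *Lgr6* with 0.179 against 1.47 and 0.271 against 2.27 FPKM. With DMSO, *Rspo3*, *Sfrp4*, *Wnt11* and *Fzd9* were also higher with the KO label, and with GSK126 *Wnt10a* was.

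In heart, none of the 8 genes at 1 FPKM was past 2-fold on the FPKM + 1 scale, beside 4.04% of all genes. *Lef1* came nearest, 2.76-fold lower in FPKM in the library labelled *Dnmt3a* KO, with a log2 ratio of FPKM + 1 of -0.99 and 41 against 140 reads. *Nkd1* was 1.29-fold and *Wif1* 1.63-fold higher in FPKM, both outside counting error, as was *Sfrp2*, 1.09-fold lower, and the *Tcf7*, *Tcf7l1*, *Tcf7l2*, *Axin2* and *Dkk2* ratios were within it. Endocardial cushion and valve markers summed to 198 FPKM in the WT heart and 211 FPKM under the KO label, endothelial markers to 434 and 430 FPKM, and epicardial and mesothelial markers to 260 and 231 FPKM. All 8 markers of each of these lists were at 1 FPKM or more in both hearts. Erythroid markers were lower in the library labelled KO, at 18517.7 against 27023 FPKM, and skeletal muscle markers summed to 677 against 897 FPKM. Only 3 of these 8 muscle markers were at 1 FPKM or more, led by *Ckm* with 446 against 513 and *Acta1* with 223 against 370 FPKM. Of the 5 hepatocyte markers at 1 FPKM, 4 were lower, among them *Alb* with 3.04 against 12.7 and *Afp* with 2.57 against 10.1 FPKM, while the list summed to 65.8 against 63.6 FPKM. The part of these markers in the *Lef1* value was not tested. Of the 71 other pathway genes at 1 FPKM, 1 was higher and 1 lower. *Fgf9* had 6.91 FPKM with the KO label against 2.18 FPKM in WT, and the Notch ligand *Dll1*, a Wnt target in the early mesoderm, had 3.42 against 7.98 FPKM.

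In liver, all 6 of the genes at 1 FPKM were lower in the library labelled *Dnmt3a* KO at any size of difference, as were 61.7% of all genes. Of these, *Tcf7* lay at 0.997 times the WT level (0.799 to 1.25), and relative to the median of all genes 5 of the 6 were lower. *Sfrp2* was 4.15-fold lower in FPKM and *Axin2* 3.27-fold lower, and they were the 2 of the 6 past 2-fold, beside 3.68% of all genes past 2-fold. Their log2 ratios of FPKM + 1 were -1.41 and -1.07. Set relative to the median of all genes, which was -0.076, *Axin2* came to just under 2-fold. *Nkd1* was 1.38-fold lower in FPKM. *Wif1* and *Dkk2*, which were under 1 FPKM in both livers and are not among the 6, were 3.07-fold and 2.22-fold lower in FPKM on 8 against 24 and 19 against 43 reads, with log2 ratios of FPKM + 1 of -0.35 and -0.28. *Lef1*, also under 1 FPKM in both, was listed at 0 against 0.319 FPKM in WT, on 0 against 18 reads. Its log2 ratio was -0.40, outside counting error. *Sp5*, likewise under 1 FPKM, was 1.17-fold higher, within counting error. Skeletal muscle markers were lower in the liver labelled KO as well. They summed to 60.2 FPKM in WT liver, with 6 of 8 at 1 FPKM or more, and to 1.66 FPKM in the liver labelled KO, with none at 1 FPKM and 2 listed at 0. *Acta1* had 28.4 against 0.624 FPKM and *Tnnt3* 8.52 against 0.224 FPKM. Fibroblast markers summed to 974 and 659 FPKM, with *Col3a1* at 289 against 119 FPKM, hepatocyte markers to 23688.5 and 14272.9 FPKM and cardiomyocyte markers to 70.1 and 18.6 FPKM, while erythroid markers summed to 94459.6 and 128492 FPKM. Their part in the *Sfrp2* and *Axin2* values was not tested. Of the 52 other pathway genes at 1 FPKM, none was higher and the receptor *Ror2* alone was lower, with 0.198 against 1.53 FPKM.

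**Figure D3:**
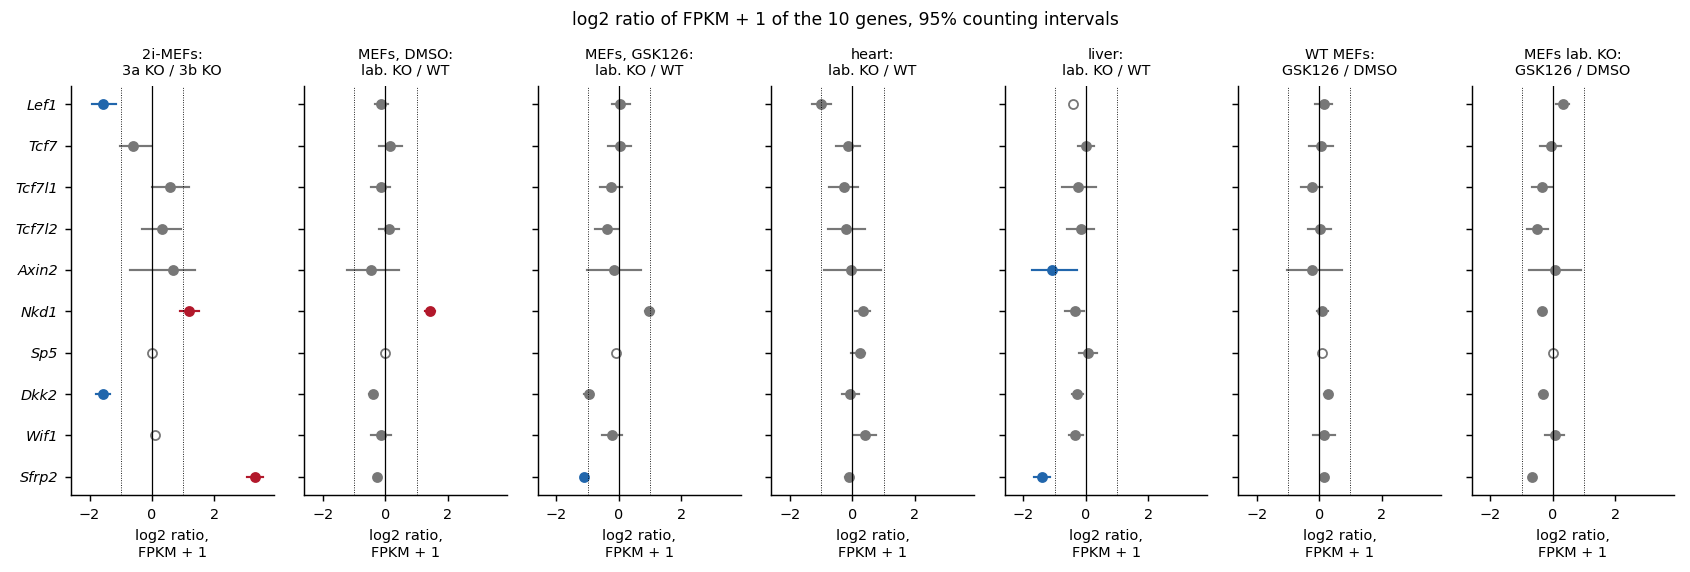
log2 ratio of FPKM + 1 of the 10 genes in the 7 comparisons, with 95% counting intervals; red and blue mark genes at least 2-fold higher or lower (dotted lines at -1 and 1), grey the others, and open circles genes listed at 0 in at least 1 of the compared libraries, which have no interval. "lab." means labelled; Sfrp2 is at 3.30 in 2i-MEFs and at -1.41 in liver, and Lef1 is at -1.56 in 2i-MEFs and -0.99 in heart.

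Between GSK126 and DMSO all 10 genes stayed under 2-fold on the FPKM + 1 scale in both genotypes, beside 3.76% of all genes past 2-fold in WT MEFs and 5.26% in MEFs labelled *Dnmt3a* KO. *Ezh2*, the target of the drug, had 18.8 and 11.3 FPKM in WT MEFs and 17.3 and 18.7 FPKM in MEFs labelled KO, without and with GSK126. In WT MEFs, *Dkk2* was 1.22-fold and *Sfrp2* 1.12-fold higher with GSK126. In MEFs labelled KO, *Sfrp2* was 1.61-fold, *Tcf7l2* 1.46-fold and *Nkd1*, *Dkk2* and *Tcf7l1* 1.28-fold lower. *Lef1* was 3.63-fold higher there (1.38 to 11.2), on 18 against 6 reads and at 0.395 against 0.109 FPKM. With GSK126 and with DMSO, in that order, epicardial and mesothelial markers in these KO-labelled MEFs summed to 357 and 144 FPKM, endocardial cushion and valve markers to 252 and 515 FPKM, and fibroblast markers to 12771 and 16276 FPKM. *Postn*, which is on both of the last 2 lists, had 176 and 436 FPKM. It was the only cushion and valve marker past 2-fold. The part of these marker lists in the values of the 10 genes was not tested. The median log2 ratio of the genes at 1 FPKM was 0.053 in WT MEFs and -0.34 in MEFs labelled KO. In WT MEFs, the ligands *Wnt16* and *Wnt5b* were past 2-fold in opposite directions, 2 of the 72 other pathway genes at 1 FPKM, *Wnt16* with 14.55 against 5.32 FPKM and *Wnt5b* with 1.33 against 4.88 FPKM. None of the 71 other pathway genes at 1 FPKM in MEFs labelled KO was past 2-fold. Each MEF library enters more than 1 of the 4 MEF comparisons, so the values of these are linked.

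**Figure D4:**
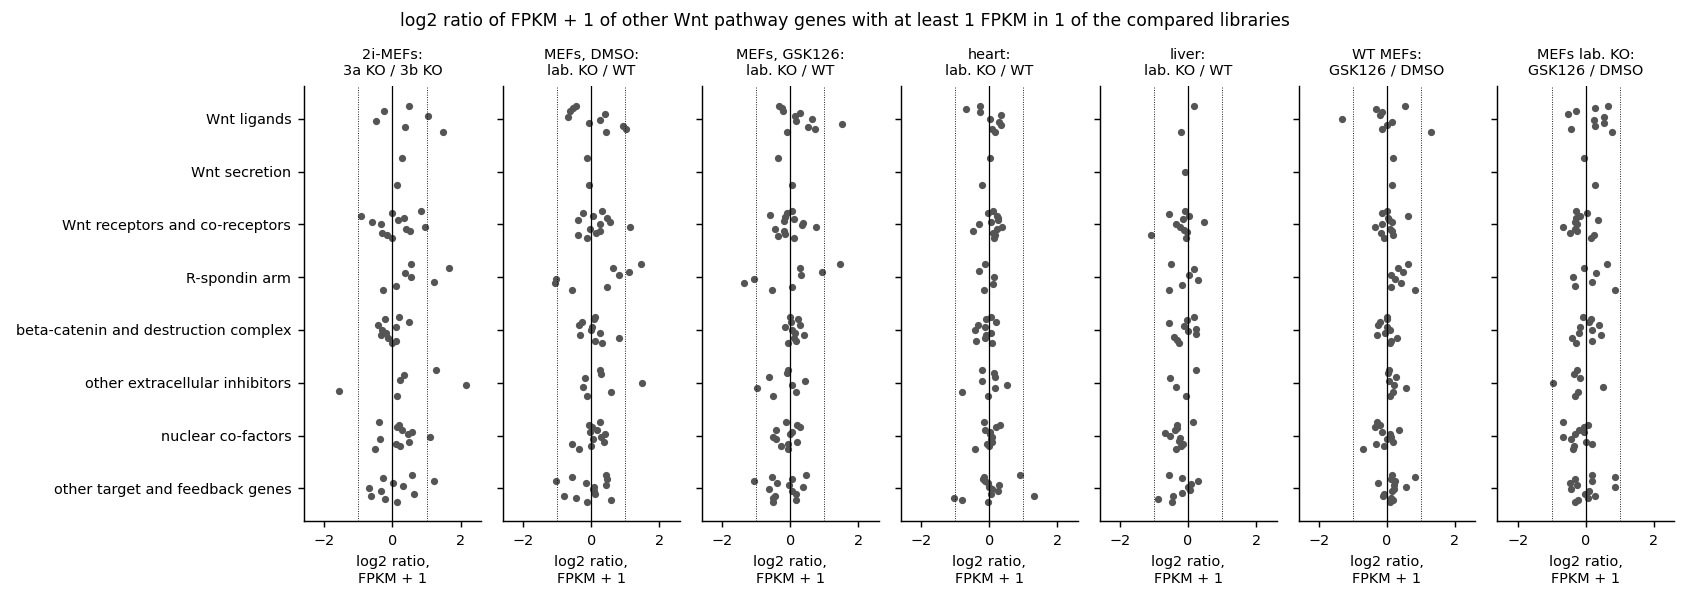
log2 ratio of FPKM + 1 of the other Wnt pathway genes, by list (rows) and comparison (columns), 1 point per gene with at least 1 FPKM in at least 1 of the compared libraries; dotted lines mark 2-fold and "lab." means labelled. Most points lie within 2-fold, and in 2i-MEFs 7 genes lie above and 1 below.

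The most abundant pathway genes were the shared parts of the machinery, such as beta-catenin and the co-repressors. *Ctnnb1*, which encodes beta-catenin, lay between 152 and 452 FPKM. The co-repressor *Aes* lay between 327 and 898 FPKM and *Ctbp1* between 149 and 343 FPKM. *Wls*, which carries Wnt proteins to the cell surface, ran from 8.03 to 247 FPKM and the inhibitor *Dkk3* from 4.32 to 126 FPKM. Among the receptors *Ryk* lay between 24.9 and 89.6 FPKM, and among the targets *Ccnd1*, a G1 cyclin, lay between 32.4 and 311 FPKM. Of the ligands, *Wnt5a* was the highest on average, at 0.0788 to 36.7 FPKM, and 12 of the 19 reached 1 FPKM in at least 1 library.

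The genes whose pattern was most like that of *Lef1* were found by Pearson's r of log2(FPKM + 1) over the 10 libraries, among 12664 genes that reached 5 FPKM somewhere. They were *Tbc1d1* (r = 0.937), *Spats2* (0.922), *Dyrk2* (0.916), *Tceal9* (0.915) and *Olfr1033* (0.913). *Tbc1d1*, a Rab GTPase-activating protein, had 21.7 FPKM in *Dnmt3b* KO and 15.2 FPKM in *Dnmt3a* KO 2i-MEFs, 21.4 and 15.9 FPKM in WT and KO-labelled heart, and 7.38 to 10.3 FPKM elsewhere. *Olfr1033*, named as an olfactory receptor, had 18.6 and 4.68 FPKM in the same 2i-MEFs, 3.19 and 2.31 FPKM in heart and at most 1.42 FPKM elsewhere. The 10 points are libraries of 4 kinds of sample, which they share with each other in groups of 2 to 4, so r is no count of independent agreement.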

How the data were processed

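The authors trimmed the single-end reads, mapped them to mm10 with TopHat2 and Bowtie2 on a GENCODE annotation and computed FPKM values with Cufflinks. The deposited table holds these FPKM values for 52609 gene rows and 10 libraries, with no counts and no stated scaling between libraries. The submitters' processing notes name TopHat2 2.1.0, Bowtie2 2.2.5 and 2.2.8, Cufflinks 2.2.1 and cutadapt 1.9.1. The study's methods give other versions of all of these but Cufflinks. Rows that repeat a symbol, 155 in all and none of the 10 genes, were summed. The 16 DNA methylation samples were not analysed here.

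Groups were taken from the labels. The 10 genes and all gene lists were chosen with earlier results of these data known, so no pattern here is independent support for them. Comparisons used the log2 ratio of FPKM + 1, called at 2-fold. With 1 library per condition no test was made. The genes named outside the 10 were, by rule, pathway genes past 2-fold (at most 4 per list and comparison), the 3 with the highest mean FPKM of a list, the 5 most like *Lef1*, and the leading markers of lists that moved with a result; of the 3 per list only some are given. *Pax8* falls outside this rule and was named after its values were seen.

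Depth was estimated from 6589 genes with 1 transcript of at least 1500 bases in GENCODE M21, assuming fragments of 200 bases. Between 96.4% and 98.0% of values under 10 reads fell within 0.1 read of a whole number, where evenly spread values would give 20%. Reads per gene are estimates, given for the shortest and longest coding transcripts. Intervals are exact 95% Poisson or Clopper-Pearson intervals made without molecular identifiers in the reads, so PCR copies are counted too and only counting error is covered. The depth and ratio steps were tested on simulated data. Promoter windows are from RefSeq on GRCm38.p6, 32851 windows of 27025 genes. Python 3.11.15, pandas 2.3.3, scipy 1.17.1 and matplotlib 3.10.9 were used. Alternatives were a pseudocount of 0.1, centring, a threshold of 1.5-fold, a filter on the mean, and the row with the highest mean.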

Additional observations from a re-analysis of the deposited data

Results flagged for a closer look

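In 6 cases a gene moved in opposite directions under contrasts with the same labels in different samples, each outside counting error. With 1 library per condition these differences were not tested.

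For the library labelled *Dnmt3a* KO against WT, *Nkd1* was higher in MEFs with DMSO (log2 ratio of FPKM + 1 of 1.43) and lower in liver (-0.36), a difference of 1.78. Against the same liver value it differed by 1.33 in MEFs with GSK126 and by 0.69 in heart. *Wif1* was higher in heart (0.42) and lower in liver (-0.35), a difference of 0.76. In MEFs and heart the level of *Dnmt3a* went against these labels, while in liver it followed them, so these 4 cases may not set the same contrast side by side. With the MEF and heart labels exchanged, *Nkd1* would be at -1.43, -0.98 and -0.33 in MEFs with DMSO, MEFs with GSK126 and heart, and *Wif1* at -0.42 in heart, the same direction as in liver. *Pax8*, named after its values were seen, was higher under the KO label in MEFs (4.24 and 6.92 against 0.236 and 0.101 FPKM). In 2i-MEFs it had 16.6 FPKM with *Dnmt3a* KO and 0.715 FPKM with *Dnmt3b* KO, with no WT library beside them. It was listed at 0 in both hearts. An exchange of labels was not tested. For GSK126 against DMSO, *Sfrp2* was at 0.16 in WT MEFs and -0.68 in MEFs labelled KO, a difference of 0.84, and *Dkk2* at 0.26 and -0.32, a difference of 0.58.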

How the results depend on the processing

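No paired analysis was made: each condition has 1 library, and the number shared by heart and liver leaves 1 pair per genotype. No replicate was there to leave out. Of 70 log2 ratios of the 10 genes, 8 were past 2-fold, none of these changed sign under any alternative, and 1 came under 2-fold when centred on the median of all genes: of the 10 genes, the number lower in liver was then 1 instead of 2, without *Axin2* (-1.07 before). The row with the highest mean changed no count. A pseudocount of 0.1 gave 1 of the 10 genes higher and 2 lower in MEFs with GSK126 (labelled KO against WT) and 1 lower in heart, which was *Lef1*. The threshold of 1.5-fold gave the same 3 counts, and 1 lower for GSK126 in MEFs labelled KO.

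For the 99 other pathway genes, a pseudocount of 0.1 gave 2 lower in 2i-MEFs, 4 higher and 4 lower in MEFs with GSK126 (labelled KO against WT), 2 higher and 3 lower in heart and 2 lower in liver. For GSK126 against DMSO it gave 3 higher in WT MEFs, and 1 higher and 2 lower in MEFs labelled KO. The threshold of 1.5-fold gave 5 lower in 2i-MEFs, 9 higher and 5 lower in MEFs with DMSO, 6 and 6 in MEFs with GSK126, 2 higher and 3 lower in heart and 3 lower in liver (labelled KO against WT in all but 2i-MEFs). For GSK126 against DMSO it gave 4 higher and 2 lower in WT MEFs and 5 higher and 4 lower in MEFs labelled KO. The mean filter of 1 FPKM gave 1 lower in MEFs with DMSO and 0 in liver. Under these settings 23 of 70 such counts moved by over 1.5 times, and of the 70 counts of the 10 genes 8 did. Depth limits the low genes: *Sp5*, *Wif1* and *Axin2* rest on few reads, and 1 library per condition leaves variation between samples unmeasured.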
